A study of Mus musculus with 6 samples.

Results

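Heme is assembled from glycine and succinyl-CoA by a chain of enzymes that starts and ends in the mitochondrion and passes through the cytosol in between. 5-aminolevulinate synthase makes the first intermediate and sets the rate, through Alas1 in most cells and through the X-linked, erythroid Alas2 in red cell precursors. The later enzymes are each encoded by a single gene and rise steeply when cells commit to the red cell lineage. Genes of this chain, 8 in number, were followed here in haematopoietic stem cells (HSCs) from mouse bone marrow. They were Alas1, Alas2, Alad, Uros, Urod, Cpox, Ppox and Fech, and not every step of the chain has a gene among them. They were found by their symbols in the table of expression values, where 8 of 8 had a row among 46959 rows in all.

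RNA was sequenced from 3 control and 3 MaeaCsf1r-Cre libraries, each from about 2000 sorted HSCs (lineage- Sca-1+ c-Kit+ CD150+ CD48-) of 2 pooled mice. In MaeaCsf1r-Cre mice a floxed Maea, which encodes a subunit of an E3 ubiquitin ligase known from the contact of macrophages with erythroblasts, was deleted by a Cre driven from the Csf1r promoter, a promoter of mononuclear phagocytes that also recombined in stem and progenitor cells. Controls were littermates, all mice were 8 weeks old per the design text and 7 to 12 weeks old per the study's methods, and the labels do not give the Maea and Cre alleles of the control mice. The comparison asked how the transcripts of HSCs differ once Maea is lost.

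The library totals behind the CPM values were 32965000 to 39611000 reads in control and 44155000 to 60931000 reads in MaeaCsf1r-Cre libraries, as computed from the steps between low values. At that depth 3 reads were worth 0.0492 to 0.0910 CPM (the reads of a gene, scaled to the same total in each library), a floor that covers counting error only. Maea itself was at 116 ± 7.29 CPM in control and at 88.8 ± 12.05 CPM in MaeaCsf1r-Cre HSCs (SD, n = 3 each) with no overlap of the groups, but the log2 difference of -0.39 ± 0.13 (SE) had a limma adjusted p of 0.967, and of 0.218 when the fit was blocked by replicate number. The study reports efficient deletion in stem and progenitor cells from staining of the MAEA protein and PCR of genomic DNA. These are other measures than the RNA counted here over the whole gene. The HSC sort markers Kit, at 393 to 700.1 CPM, and Slamf1, at 13.1 to 35.1 CPM, were present in every library, and Cd48, which the sort selects against, stood at 12.4 to 46.5 CPM. Same-numbered control and MaeaCsf1r-Cre libraries deviated together from their group means, so the numbers were taken to pair the libraries and each fit was run again with that number as a block.

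The heme enzymes differed widely in level in these HSCs. Alad, Cpox and Fech went above 200 CPM in at least 1 library of each group, Urod, Alas1, Uros and Ppox lay between 16.8 and 132 CPM, and Alas2 stayed under 1 CPM in all 6 libraries. The upper ranges overlapped, since in control replicate 3 Alad was at 74.8 CPM and Fech at 118 CPM. For none of the 8 genes did the control and MaeaCsf1r-Cre libraries separate. Over all 12955 genes tested, which leave out Alas2, the groups did not overlap for 8.55% (2.49% higher and 6.06% lower in MaeaCsf1r-Cre HSCs). With so low a share, a set of 8 genes would often hold none, so no difference from other genes is read from this.

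**Figure D1:**
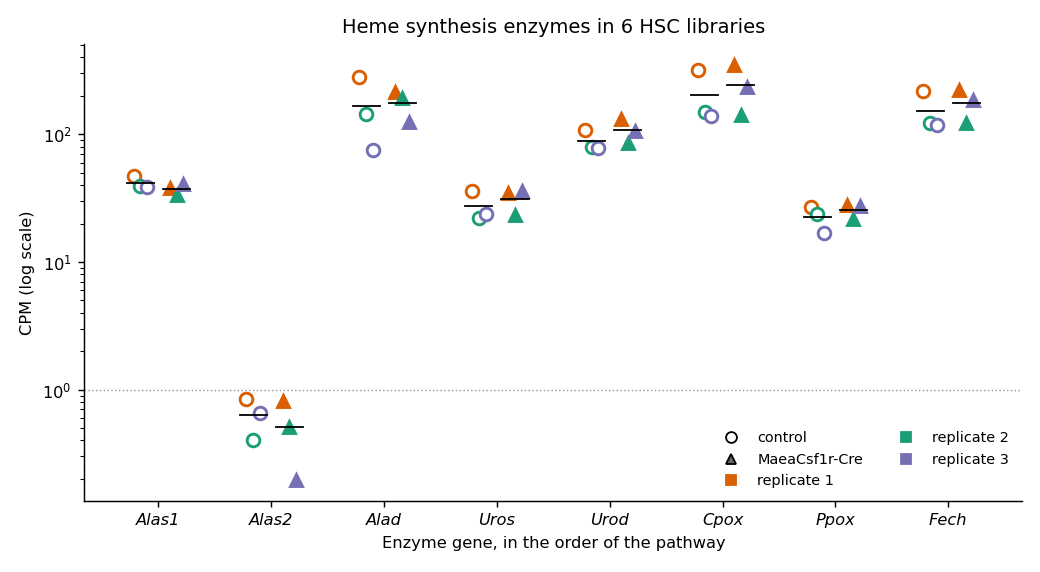
Expression of the 8 heme synthesis enzymes in CPM on a log axis, with open circles for the 3 control and filled triangles for the 3 MaeaCsf1r-Cre libraries, colours for replicate numbers, horizontal bars for group means and a dotted line at 1 CPM. Alas2 lies under the dotted line in all 6 libraries, and the circles and triangles overlap for every enzyme.

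Alas1, the housekeeping form of the rate-limiting enzyme, was at 47.0, 39.6 and 38.4 CPM in control replicates 1, 2 and 3 and at 37.7, 33.6 and 40.6 CPM in MaeaCsf1r-Cre replicates 1, 2 and 3. These values are the tightest of the chain, with the highest library 1.40 times the lowest. Its mean was 41.7 ± 4.66 CPM in control and 37.3 ± 3.504 CPM in MaeaCsf1r-Cre HSCs (SD, n = 3 each), and the groups overlapped. On GRCm38 (mm10) Alas1 spans bases 106233455 to 106248654 of chromosome 9, and 7.53% of its exon length is shared with an antisense gene whose reads cannot be told apart from its own, since the library kit does not mark strand.

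Alas2, the erythroid form, was at 0.839, 0.404 and 0.661 CPM in controls 1, 2 and 3, and the MaeaCsf1r-Cre libraries had 0.813, 0.510 and 0.196 CPM. These correspond to about 8.69 to 49.6 reads, so every library was above the floor of 3 reads, and the groups overlapped. The means were 0.635 ± 0.219 and 0.506 ± 0.309 CPM (SD, n = 3 each). Per kb of transcript, Alas1 was 29.1 to 130.02 times as high as Alas2 within a library. Alas2 lies on chromosome X from 150547375 to 150570638, with 15.5% of its exon length shared with other genes, Apex2 on the opposite strand among them, and reads of the 2 genes cannot be told apart there.

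Alad, which joins a pair of 5-aminolevulinate molecules into porphobilinogen in the cytosol, varied most among the 7 enzymes above 1 CPM. It was at 282, 143 and 74.8 CPM in control replicates 1, 2 and 3 and at 213, 192 and 125 CPM in MaeaCsf1r-Cre replicates 1, 2 and 3. Replicate 1 was highest and replicate 3 lowest in both groups, and the MaeaCsf1r-Cre values lay inside the range of the controls. The highest library was 3.78 times the lowest, against group means of 167 ± 106 and 177 ± 46.2 CPM (SD, n = 3 each). Summed, the 10 granulocyte markers had the same order. The sum was lowest in replicate 3 of both groups at 76.9 and 76.0 CPM and highest in replicate 1 at 302 and 164 CPM. It followed Mpo, at 181, 96.8 and 26.4 CPM in control and 90.4, 51.7 and 3.77 CPM in MaeaCsf1r-Cre replicates 1, 2 and 3. Prtn3 ran otherwise, at 73.8, 86.6 and 48.9 CPM in control and 41.8, 72.6 and 71.5 CPM in MaeaCsf1r-Cre libraries. The part of these markers in the level of Alad was not tested. Alad lies on chromosome 4 from 62509169 to 62519918.

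Uros, which closes the linear tetrapyrrole into uroporphyrinogen III, was at 36.2, 22.0 and 23.9 CPM in control and at 34.8, 23.3 and 36.1 CPM in MaeaCsf1r-Cre HSCs. Control replicate 1 and MaeaCsf1r-Cre replicates 1 and 3 formed the high values, and the groups covered nearly the same range, with means of 27.4 ± 7.73 and 31.4 ± 7.04 CPM (SD, n = 3 each). Urod, which removes carboxyl groups to give coproporphyrinogen III and is the last cytosolic enzyme of the chain, was at 107, 79.7 and 78.2 CPM in control and at 132, 85.2 and 107 CPM in MaeaCsf1r-Cre HSCs. The same 3 libraries were high, the groups overlapped, and the means were 88.4 ± 16.3 and 108 ± 23.4 CPM (SD, n = 3 each). Uros lies on chromosome 7 from 133686243 to 133710072 and Urod on chromosome 4 from 116989965 to 116994413, and neither shares exon length with another annotated gene.

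Cpox, the oxidase that brings the intermediate back to the mitochondrion as protoporphyrinogen IX, was at 317, 149.6 and 140.2 CPM in control and at 351, 141 and 234 CPM in MaeaCsf1r-Cre HSCs. Both replicate 1 libraries were more than 300 CPM and MaeaCsf1r-Cre replicate 3 lay between them and the remaining 3, so that the spread inside each group, 99.6 CPM in control and 105 CPM in MaeaCsf1r-Cre HSCs (SD, n = 3 each), exceeded the difference of the means of 202 and 242 CPM. Cpox lies on chromosome 16 from 58670292 to 58717636, with 3.06% of its exon length shared with Gpr15 on the other strand.

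Ppox, which oxidises protoporphyrinogen IX to protoporphyrin IX, was at 26.8, 23.6 and 16.8 CPM in control and at 27.9, 21.7 and 27.5 CPM in MaeaCsf1r-Cre HSCs. Control replicate 3 was the low library, and the means were 22.4 ± 5.15 and 25.7 ± 3.43 CPM (SD, n = 3 each). Ppox lies on chromosome 1 from 171275990 to 171281186, and 17.5% of its exon length is shared with B4galt3 on the opposite strand, whose reads cannot be told apart there. Fech, the ferrochelatase that inserts iron to complete heme, was at 219, 122 and 118 CPM in control and at 222, 123 and 187 CPM in MaeaCsf1r-Cre HSCs. It had the same high libraries as Cpox, with nearly equal values at replicate 1 and at replicate 2 in the 2 groups and a gap at replicate 3. Its means were 153 ± 57.3 and 177 ± 50.3 CPM (SD, n = 3 each), and the groups overlapped.

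To compare the enzymes with each other, CPM was divided by the length of the principal protein-coding transcripts, since longer transcripts give more reads. The mean over the 6 libraries was highest for Alad at 139.95 ± 59.7 CPM per kb, followed by Cpox at 71.7 ± 30.4 and Urod at 66.0 ± 14.1 CPM per kb (SD, n = 6). Fech at 25.1 ± 7.61, Uros at 18.0 ± 4.27, Ppox at 13.2 ± 2.37 and Alas1 at 12.2 ± 1.35 CPM per kb formed a lower tier, and Alas2 was last at 0.280 ± 0.122 CPM per kb (SD, n = 6 each). The neighbours Cpox and Urod, Fech and Uros, and Ppox and Alas1 differed by less than the larger of their SDs. Cpox stood above Urod in 3 of 6 libraries, Ppox above Alas1 in 5 of 6 and Fech above Uros in 6 of 6. With the union of all annotated exons as the length, Urod passed Cpox and Alas1 passed Ppox, while Alad stayed first and Alas2 last. The genes of the first enzyme, Alas1 and Alas2, were thus the lowest per length with the principal transcripts, and Ppox came between them with the exon union.

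**Figure D2:**
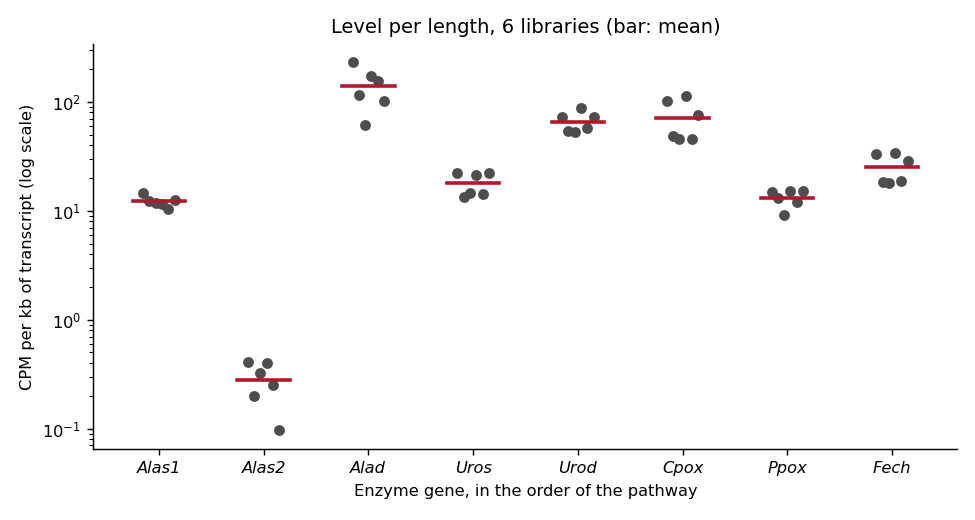
Level of each enzyme in CPM per kb of transcript on a log axis, with a point for each of the 6 libraries and a red bar for their mean. Alad is highest with a mean of 139.95 CPM per kb and Alas2 lowest with a mean of 0.280 CPM per kb.

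In the comparison of genotypes, none of the 7 enzymes tested passed the threshold. Their log2 fold changes, MaeaCsf1r-Cre over control on the log2(CPM + 1) scale, were above 0 for 6 of 7, as they were for 39.1% of all genes tested, and ranged from -0.15 for Alas1 to 0.28 for Urod. The median over the 7 was 0.23, against -0.06 over all genes tested. For Alad and Cpox the direction rested on single libraries. Alad turned to -0.22 without control replicate 3 and Cpox to -0.049 without MaeaCsf1r-Cre replicate 1, each leaving 5 of 7 above 0. The other enzymes kept their sign with any 1 library left out, but the size of the median varied. The median was 0.055 without control replicate 3, 0.096 without MaeaCsf1r-Cre replicate 1, 0.10 without control replicate 2, 0.39 without MaeaCsf1r-Cre replicate 2 and 0.43 without control replicate 1. An adjusted p under 0.05 was reached by 0 of 7 enzymes, against 0.00772% of all genes (1 of 12955), and an unadjusted p under 0.05 by 0 of 7, against 3.99% of all genes (0.803% higher and 3.19% lower), in limma's moderated test with Benjamini-Hochberg adjustment over 12955 genes. Alas2 did not reach 1 CPM in 3 libraries and was left out of that test, and in a fit without the filter it had a log2 difference of -0.13 ± 0.18 (SE, limma adjusted p = 0.888).

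Among the enzymes with the narrowest intervals, Alas1 had a log2 fold change of -0.15 (95% interval -0.49 to 0.18) and Urod of 0.28 (95% interval -0.17 to 0.73). Ppox followed with 0.21 (95% interval -0.27 to 0.68) and then Uros with 0.20 (95% interval -0.36 to 0.76). The intervals were wider for Fech, at 0.23 (95% interval -0.44 to 0.90), Cpox, at 0.27 (95% interval -0.64 to 1.17), and Alad, at 0.25 (95% interval -0.76 to 1.26). For Cpox and Alad a log2 difference of 1, a doubling, therefore lay inside the interval. The adjusted p from limma was 0.967 for 6 of these enzymes and 0.973 for Alad.

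Blocked by replicate number, the same fold changes had smaller standard errors, 0.10 against 0.19 for Urod, 0.15 against 0.39 for Cpox and 0.20 against 0.44 for Alad. The interval of Urod then lay above 0, from 0.04 to 0.52, with an unadjusted p of 0.0280 and an adjusted p of 0.302 from limma. It was the only one of the 7 with an unadjusted p under 0.05 in the blocked fit, where 3.11% of all genes had such a p with higher levels and 13.9% in either direction. The adjusted p of the other 6 enzymes lay between 0.473 and 0.628 in the blocked limma fit, and 0 of 7 enzymes passed, as against 0.00772% of all genes. A p that misses the threshold in this fit does not show that the levels were alike.

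**Figure D3:**
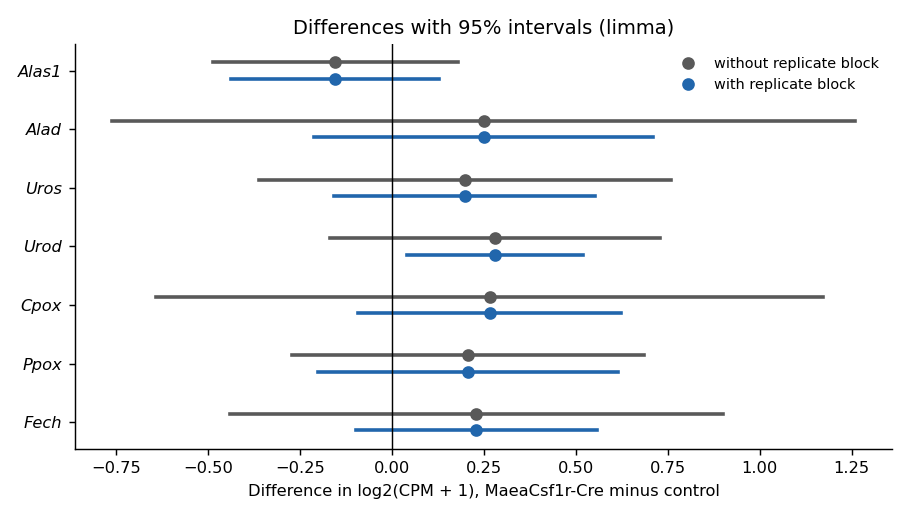
Difference in log2(CPM + 1), MaeaCsf1r-Cre minus control, of the 7 tested enzymes, with points for limma's estimate and lines for its 95% interval, grey without and blue with the replicate number as a block. Every interval without the block spans 0, and with the block that of Urod, from 0.04 to 0.52, does not.

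The differences were uneven across the same-numbered pairs of libraries. In the replicate 3 pair all 7 tested enzymes were higher in the MaeaCsf1r-Cre library, as were 51.4% of all genes, with log2 ratios of 0.45 for Urod, 0.57 for Uros, 0.66 for Fech, 0.68 for Ppox, 0.73 for Alad, 0.74 for Cpox and 0.08 for Alas1. In the replicate 1 pair the ratios ran from -0.41 for Alad to 0.30 for Urod, and in the replicate 2 pair from -0.23 for Alas1 to 0.42 for Alad. The ratios of Fech were 0.02 in both of those pairs and those of Cpox 0.14 and -0.08. Urod and Fech were the enzymes higher in all 3 pairs, which was so for 13.2% of all genes tested. Alas2 had log2 ratios of -0.02, 0.10 and -0.47 in the pairs 1, 2 and 3, opposite in sign to the other enzymes at replicate 3.

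For 5 of the 7 tested enzymes most of the variation among libraries went with the replicate number. This number, which has more degrees of freedom than the genotype, took 84.3% of the variance of log2(CPM + 1) for Cpox, 80.4% for Alad, 77.6% for Fech, 70.0% for Uros and 66.1% for Urod, whereas the genotype took 4.15% for Alad, 5.86% for Cpox, 8.26% for Fech, 10.4% for Uros and 26.7% for Urod. Alas1 and Ppox differed from these, with 34.6% and 34.1% for the replicate number and 30.02% and 17.7% for the genotype. Over all genes tested the medians were 58.8% for the replicate number and 12.8% for the genotype, so that a large share for the replicate number was not particular to heme enzymes.

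The enzymes after the first step moved with each other across the 6 libraries. Among the 15 pairs of tested enzymes without Alas1, Pearson's r of log2(CPM + 1) ran from 0.464 to 0.990 with a median of 0.807, highest between Cpox and Fech, the enzymes that stand on either side of Ppox. The 6 pairs with Alas1 had r from 0.277 to 0.579 with a median of 0.469. These are descriptions over 6 libraries that share their replicate numbers. The genes whose pattern was most like that of Alas1 among 12954 others were Lmbrd1 (r = 0.989), Selt (r = 0.978) and A230060F14Rik (r = 0.977, 6 libraries each), and 104 genes had an r above 0.9.

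The same libraries that were high in heme enzymes were high in the summed early erythroid markers. The 8 markers were Gata1 and Klf1, transcription factors of red cell precursors, Epor, the erythropoietin receptor, Car1 and Car2, carbonic anhydrases, Rhd, Aqp1 and Cnrip1. Klf1 was at 319, 119 and 94.0 CPM in control and at 331, 122 and 202 CPM in MaeaCsf1r-Cre replicates 1, 2 and 3, the same order within each group as Cpox and Fech. Gata1, at 191, 84.2 and 98.8 CPM in control, Epor, at 100.1, 39.8 and 46.4 CPM, and Aqp1, at 353, 120.1 and 171 CPM, were also highest in replicate 1 but had replicate 2 as the lowest control. Cnrip1 ran the other way, lowest in replicate 1 of both groups at 6.72 and 3.19 CPM. Summed, the 8 markers, all with a row and none at 0 in every library, reached, mostly through Car1 and Car2, 7868, 3660 and 2936 CPM in control and 7858, 3495 and 4721 CPM in MaeaCsf1r-Cre HSCs, and the 8 enzymes 1037, 580 and 491 CPM and 1019, 621 and 757 CPM. Late erythroid markers, 11 of 12 with a row, summed to 259 to 692 CPM in control and 307 to 735 CPM in MaeaCsf1r-Cre libraries, while the adult globin genes Hbb-bs and Hbb-bt were at 1.88 to 11.6 and 9.91 to 40.6 CPM. The 6 genes of the HSC sort, Cd48 included, had median deviations from the mean of the 6 libraries of -0.27, 0.19 and 0.17 on the log2 scale in control and -0.45, 0.0077 and 0.23 in MaeaCsf1r-Cre replicates 1, 2 and 3, where the tested enzymes had 0.33, -0.27 and -0.42 and 0.43, -0.22 and 0.18. They were opposite in sign to the enzymes in all libraries but MaeaCsf1r-Cre replicate 3, where both were above 0. Cd48, which the sort selects against, was highest in replicate 1 of both groups, at 33.5 and 46.5 CPM. In RNA from bulk cells, more cells of a type and more of its RNA per cell cannot be told apart, and the part of erythroid cells in the level of the enzymes was not tested.

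**Figure D4:**
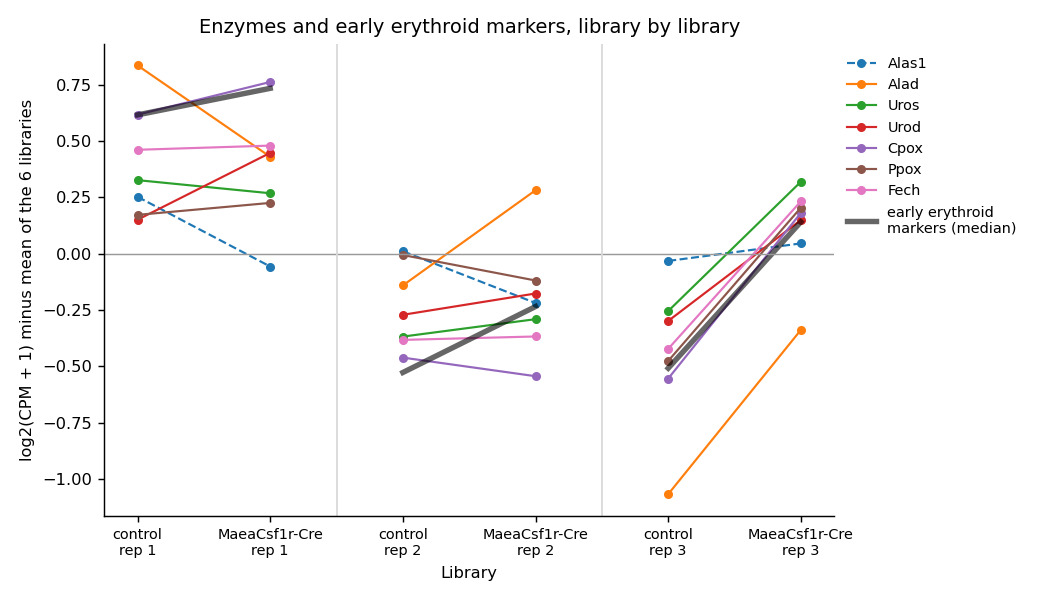
Deviation of log2(CPM + 1) from the mean of the 6 libraries for the 7 tested enzymes (thin lines, Alas1 dashed) and for the median of the 8 early erythroid markers (thick grey line), with lines joining the control and MaeaCsf1r-Cre library of the same replicate number. Enzymes and markers are above 0 in both replicate 1 libraries with the exception of Alas1 in MaeaCsf1r-Cre, mostly under 0 in both replicate 2 libraries, and step up from control to MaeaCsf1r-Cre at replicate 3.

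Each enzyme was set against the mean log2(CPM + 1) of the early erythroid markers over the 6 libraries, 8 relations in all, with exact two-sided permutation tests. Fech followed the markers most closely, with a Pearson's r of 0.981 (exact permutation p = 0.00278, adjusted 0.0222) and a Spearman's rho of 0.943 (exact permutation p = 0.0167, adjusted 0.0667). For Cpox r was 0.976 (exact permutation p = 0.00972, adjusted 0.0389) and rho 0.886 (exact permutation p = 0.0333, adjusted 0.0889), and for Urod r was 0.928 (exact permutation p = 0.0153, adjusted 0.0407) and rho 0.943 (exact permutation p = 0.0167, adjusted 0.0667). These 3 passed 0.05 after adjustment by r and none of the 8 did by rho. Among 12947 tested genes, which leave out the markers but include the tested enzymes, 0.425% had an r as high as Fech, 0.633% as Cpox and 3.23% as Urod. This share was 4.10% for Uros, 8.94% for Ppox, 14.3% for Alad, 26.7% for Alas1 and 32.7% for Alas2. Without the 2 libraries farthest from the median of the markers, which were both replicate 1 libraries, r was 0.946 for Fech, 0.921 for Cpox and 0.982 for Urod.

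The remaining enzymes followed less closely. Uros had an r of 0.913 (exact permutation p = 0.0681, adjusted 0.109) and a rho of 0.771 (exact permutation p = 0.103, adjusted 0.137), and Ppox an r of 0.842 (exact permutation p = 0.0306, adjusted 0.0611) and the same rho. Their r without the replicate 1 libraries was 0.886 and 0.869. Alad had an r of 0.763 (exact permutation p = 0.0819, adjusted 0.109) and a rho of 0.829 (exact permutation p = 0.0583, adjusted 0.117), and its r dropped to 0.366 without those libraries, so its relation rested on them. Neither Alas1, with an r of 0.526 (exact permutation p = 0.317, adjusted 0.362) and a rho of 0.371 (exact permutation p = 0.497, adjusted 0.497), nor Alas2, with an r of 0.373 (exact permutation p = 0.443, adjusted 0.443) and a rho of 0.486 (exact permutation p = 0.356, adjusted 0.406), passed before adjustment. Without the replicate 1 libraries r was 0.254 for Alas1 and -0.921 for Alas2. Since same-numbered libraries deviate together, the 6 libraries are not fully independent and these p-values are too small to that extent.

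Within replicate numbers the markers and most enzymes stepped up at replicate 3, but Alas1 and Alas2 had log2 ratios of 0.08 and -0.47 there. The mean of the markers differed by 0.72, 0.13 and -0.06 on the log2 scale, MaeaCsf1r-Cre minus control, at replicates 3, 2 and 1, and Fech by 0.66, 0.02 and 0.02. Not every enzyme matched the markers in the other pairs. Alad differed by 0.42 at replicate 2 and -0.41 at replicate 1, and Urod by 0.30 at replicate 1. Each replicate number holds 1 library per group, so no correlation could be computed within it. Within control libraries and within MaeaCsf1r-Cre libraries, Urod, Cpox, Ppox and Fech had the same order as the markers, whereas Alas2 and Uros did not in either group and Alas1 and Alad did so in control libraries but not in MaeaCsf1r-Cre libraries.

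**Figure D5:**
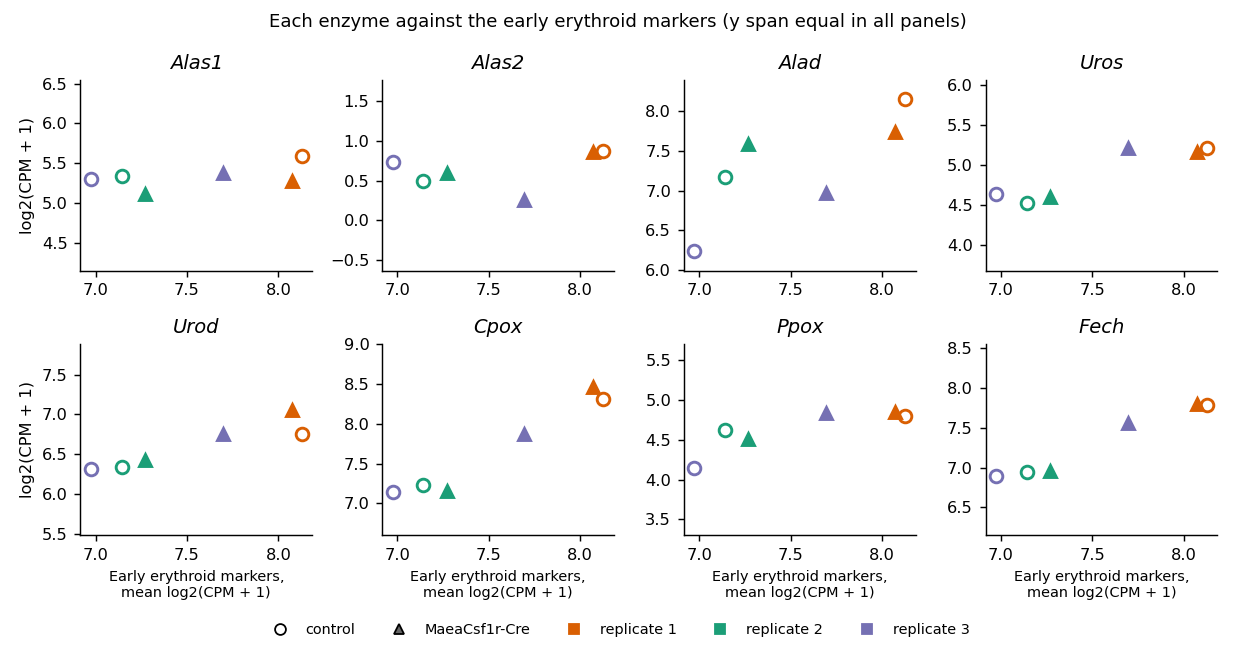
Level of each of the 8 enzymes in log2(CPM + 1) on the y axis against the mean log2(CPM + 1) of the 8 early erythroid markers on the x axis, with 1 point per library, circles for control, triangles for MaeaCsf1r-Cre and colours for replicate numbers. Cpox and Fech rise with the markers with an r of 0.976 and 0.981, and Alas1 and Alas2 do so less, with an r of 0.526 and 0.373.

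The DNA before the start sites of the enzymes was read for the motifs of factors that act on red cell genes. GATA factors bind AGATAA and its variant AGATAG, or TGATAA and its variant TGATAG, and Krüppel-like factors bind CACCC. Both strands were searched in the 250 bases before each RefSeq start site on GRCm38.p6, where 7 of 8 enzymes and 10 start sites were matched. Fech, which followed the markers most closely, had no entry and was not read. The GATA motif stood before 3 of 10 start sites, against 26.5% of 32851 promoters in all, and CACCC before 5 of 10, against 52.0%, so both shares were near the background. The promoters of Cpox, of Alas2 without the bases in its own exon, and of Urod are shown since they hold the motifs, belong to the enzyme that hardly appears in these cells, and lack the motifs. They are written 5′ to 3′ on the strand of the gene, with matches on either strand in capitals.
Cpox, chr16:58669958-58670207, plus strand: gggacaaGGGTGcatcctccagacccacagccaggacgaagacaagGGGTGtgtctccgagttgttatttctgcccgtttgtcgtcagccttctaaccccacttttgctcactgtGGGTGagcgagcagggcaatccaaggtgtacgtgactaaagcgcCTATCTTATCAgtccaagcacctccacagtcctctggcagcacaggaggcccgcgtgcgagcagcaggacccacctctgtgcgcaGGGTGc
Alas2, chrX:150547167-150547374, plus strand: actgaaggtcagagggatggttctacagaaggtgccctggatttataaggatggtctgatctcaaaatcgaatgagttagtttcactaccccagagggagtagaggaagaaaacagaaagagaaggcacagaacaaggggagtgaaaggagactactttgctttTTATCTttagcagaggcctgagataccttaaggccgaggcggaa
Urod, chr4:116994414-116994663, minus strand: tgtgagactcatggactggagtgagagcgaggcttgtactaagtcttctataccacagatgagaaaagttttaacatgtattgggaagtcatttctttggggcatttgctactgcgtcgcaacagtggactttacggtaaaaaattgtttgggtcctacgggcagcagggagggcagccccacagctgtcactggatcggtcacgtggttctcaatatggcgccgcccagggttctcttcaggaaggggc
Cpox had 2 GATA matches that overlap in a base and 4 CACCC matches, all read on the opposite strand. Alas2 had 1 GATA match in the bases shown and 3 CACCC matches in the exon bases left out, and Urod had no match of either kind in its window. A match is only a description of the letters in the window, and the part of these motifs in the level of the enzymes was not tested.

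The genes that supply the chain and use its product were read from 6 lists, in which 0 genes passed the threshold. Of 15 genes for mitochondrial supply and porphyrin transport, 0 passed in either direction, and 8 had a log2 fold change above 0 (median 0.00306). The one with the smallest p, Slc25a37, the mitoferrin that brings iron to Fech, had a log2 difference of -0.35 ± 0.19, and Shmt2, a mitochondrial enzyme of glycine metabolism, of 0.19 ± 0.12 (SE, limma adjusted p = 0.967 for both). Of 12 genes of iron uptake, storage and export 0 passed and 9 lay above 0 (median 0.06), with Ncoa4, the receptor for ferritin turnover, at -0.46 and Tfr2, a transferrin receptor, at 0.31. Of 16 genes of iron-sulfur cluster assembly, which make the kind of cluster that Fech itself carries, 0 passed and 11 lay above 0 (median 0.06), with Iscu, a scaffold on which clusters are built, at -0.16. Among 11 tested regulators of heme synthesis genes 0 passed and 4 lay above 0 (median -0.04), with Gata1 at 0.46 and Nfe2, another erythroid factor, at -0.28. Over all genes the median was -0.06 and 39.1% lay above 0, and with the replicate block 0 genes of these lists passed as well.

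Heme breakdown held the largest single log2 difference of these 6 lists. Hmox1, the inducible heme oxygenase, was at 9.95, 8.86 and 15.5 CPM in control and at 0.361, 0.317 and 5.44 CPM in MaeaCsf1r-Cre replicates 1, 2 and 3, with no overlap. The log2 difference of -2.42 ± 0.59 (SE) did not pass in limma's unblocked fit (adjusted p = 0.967) or in the blocked one (adjusted p = 0.0874). The 12 macrophage markers, all with a row and none at 0 in every library, summed to 34.8 to 76.0 CPM in control and 6.52 to 60.1 CPM in MaeaCsf1r-Cre libraries, and all 8 that were tested had a log2 difference below 0. C1qb among them was listed at 0, apart from the added constant, in MaeaCsf1r-Cre replicate 2. Their part in the level of Hmox1 was not tested. Blvrb, a biliverdin reductase that is abundant in red cells, was at 271, 109 and 115 CPM in control and at 341, 142 and 214 CPM in MaeaCsf1r-Cre HSCs, the same libraries being high as for Cpox, with a log2 difference of 0.54 ± 0.41 (SE, limma adjusted p = 0.967 unblocked and 0.218 blocked). Of 11 genes of heme breakdown, export and import 9 had a row and 8 were tested, of which 0 passed and 4 lay above 0 (median -0.02). Of 13 tested heme-containing proteins 0 passed and 4 lay above 0 (median -0.14). Cyba, a subunit of the phagocyte oxidase, was at -0.36 and Cyb5a, a cytochrome of the endoplasmic reticulum, at -0.23, both with no overlap of the groups. Lower levels with no overlap were found for 6.06% of all genes tested. Hmox1, Cyba and Cyb5a were named for having the smallest p in their lists, so no difference from other genes is read from this.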

How the data were processed

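RNA-seq of HSCs was made by the authors with SMART-Seq v4 and Nextera XT and sequenced as single-end reads of 150 bases. Per the study's methods, reads were aligned to mm10 with STAR 2.5.3a, quantified to Ensembl release 83 and normalised in Partek Flow, and the submitters' processing notes also name Trim Galore. The deposited table holds CPM, 1 column per library, with 0.0001 added to every value. Its rows summed to 75.2 to 80.2% of the total that CPM is scaled to. From 72.3 to 74.0% of low values were whole reads within 0.02 of a read, so counts were not recovered.

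Genes that reached 1 CPM in 3 or more libraries were fitted on log2(CPM + 1), a scale that understates changes of low genes, with limma 3.58.1 in R 4.3.3 (moderated test, mean-variance trend, two-sided, Benjamini-Hochberg over 12955 genes, threshold 0.05). The procedure was tested on simulated data. Groups and replicate numbers came from the sample labels, which do not say that a number marks a pair. Deviations from the group means correlated across genes by 0.627, 0.523 and 0.397 for same-numbered libraries (all above 0.1) and by -0.459 to -0.0538 for others, where genes are not independent replicates. Deviations sum to 0 within a group, so positive same-numbered values push the others below 0, and the negative values add no separate evidence. P-values measure the spread between libraries of pooled mice. Locations and lengths came from GENCODE M21 on GRCm38, which is later than the authors' annotation, and promoters from RefSeq. The 8 enzymes and 13 gene lists were chosen with earlier results of these data known. All enzymes and Maea are named, as are up to 2 genes of each pathway list with the smallest p. Up to 2 defining markers of a cell type list and the 3 genes most like Alas1 are also named. Cd48, Mpo, Prtn3, Vcam1, Mrc1 and the remaining early erythroid markers were named after their values were seen. The values of 1 gene that this rule names are not reported here. B cell markers summed to 13.6 to 28.0 CPM, with 3 of 8 at 0 in every library, and megakaryocyte markers to 256 to 1040 CPM.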

Additional observations from a re-analysis of the deposited data

How the results depend on the processing

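In all 14 alternatives 0 of the tested heme enzymes passed. Their median log2 fold change, 0.23, stayed above 0, between 0.055 and 0.43, both ends with 1 library left out. It moved by less than the spread of 0.36 between libraries (SD). Leaving out 1 of 3 libraries could hardly exceed that spread, so no stability is read from this. Adjusted p-values lay between 0.302 and 1 in limma. Alad turned to -0.22 without control replicate 3 and Cpox to -0.049 without MaeaCsf1r-Cre replicate 1, and the cause was not tested. Leaving out 1 library gave -0.22 to 0.73 for Alad, -0.049 to 0.64 for Cpox, -0.21 to -0.066 for Alas1, 0.063 to 0.41 for Uros, 0.13 to 0.44 for Urod, 0.020 to 0.34 for Ppox and 0.047 to 0.52 for Fech.

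Over all genes 1 passed, and 0 to 1 with 1 library left out, 0 without control replicate 2 or 3 or MaeaCsf1r-Cre replicate 1 or 2. With a filter at 10 CPM 0 passed (302 at an unadjusted p under 0.05 in limma), and without both replicate 1 libraries, an alternative chosen after seeing the data, 0 passed (696 at an unadjusted p under 0.05 in limma). The replicate block left 1 gene over all genes and 0 enzymes, moved the genes with an unadjusted p under 0.05 from 517 to 1805, and changed no other call. The median over all genes lay between -0.09 and 0.02 under every alternative. Among the enzymes depth limits Alas2, at 8.69 to 49.6 reads.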

Other observations

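The pathway lists beside the enzymes differed in how they varied among libraries. The median deviation from the mean of the 6 libraries, in log2(CPM + 1), of the 16 iron-sulfur cluster assembly genes was 0.26, -0.21 and -0.05 in control and 0.29, -0.22 and 0.08 in MaeaCsf1r-Cre replicates 1, 2 and 3. For the 12 genes of iron uptake, storage and export it was 0.19, -0.15 and -0.23 in control and 0.29, -0.26 and 0.04 in MaeaCsf1r-Cre libraries. The tested heme enzymes had 0.33, -0.27 and -0.42 in control and 0.43, -0.22 and 0.18 in MaeaCsf1r-Cre libraries. The 15 genes of mitochondrial supply and porphyrin transport had 0.23, -0.066 and -0.071 in control and 0.17, -0.14 and 0.044 in MaeaCsf1r-Cre libraries, and the 11 tested regulators 0.090, -0.056 and 0.0038 and 0.13, -0.17 and 0.14. The 8 tested genes of heme breakdown, export and import did not follow the replicate numbers, with 0.0019, 0.027 and 0.012 in control and -0.050, -0.17 and 0.21 in MaeaCsf1r-Cre libraries. The 13 heme-containing proteins lay between -0.17 and 0.17 in all 6 libraries and were not highest in replicate 1. Over all genes tested the medians lay between -0.11 and 0.06. The differences between these lists were not tested.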
